A study of Mus musculus with 6 samples.

Results

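The genes described here encode the nuclear-encoded structural subunits of mitochondrial complexes I, III, IV and V. Members were the non-control probes whose gene name starts with Nduf followed by a, b, c, s or v, with Uqcr, with Cox followed by 4 to 8, or with Atp5. This name rule took 135 distinct probes, which stand for 88 of the 37317 genes on the array. Of these, 77 encode structural subunits: 36 of complex I, 8 of complex III, 18 of complex IV and 15 of complex V. The other names were 7 assembly factors (Ndufaf) and 4 genes that are no structural subunit, namely Ndufa4l2, Atp5s, Atp5sl and the pseudogene Atp5c1-ps. Ndufa4, named for complex I, was counted with complex IV, where its protein is now placed. Genes go by the names in the scanner files, and Cox5b was not analysed here.

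Cochlear RNA came from female C57BL/6 mice aged 6 weeks, in 6 groups of 6 mice, and each group was measured on 1 one-colour array. The baseline mice had neither noise nor injection, and the noise-only mice had intense noise for 2 h with no injection; the labels give no time of sampling for them. In the other 4 groups the same noise was followed at once by 1 intraperitoneal dose, either the sodium salt of dexamethasone (10 mg/kg), a glucocorticoid, or saline, with sampling at 12 h or 24 h. The labels do not tell whether a group's mice were pooled. With 1 array per group no difference between 2 arrays has a replicate check. Intervals therefore cover spot error only, and no p-value is given for a pair of arrays.

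Oxidative phosphorylation couples the oxidation of NADH and succinate to the making of ATP. Complex I takes electrons from NADH, complex III passes them from ubiquinol to cytochrome c, complex IV (cytochrome c oxidase) passes them to oxygen, and complex V (ATP synthase) uses the proton gradient the others build. Most subunits are encoded in the nucleus, the catalytic centre of complex IV in the mitochondrial genome. Several nuclear subunits of complex IV exist in pairs, with one form in most tissues and another in heart and skeletal muscle or in testis. In the cochlea the stria vascularis and the hair cells are rich in mitochondria.

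Promoters of respiratory chain genes are known for sites of NRF1, GABPA, YY1 and the oestrogen-related receptors. RefSeq promoter windows (GRCm38.p6, 250 bases before to 50 after the start) were found for 64 of the 77 subunits. Exact matches on either strand to GCGCATGCG, a letter string bound by NRF1 that overlaps its own reverse complement, were present for 12.5% of these 64 genes and for 1.95% of the 27025 genes in the table. The YY1 string AAGATGGCG was present for 10.9% (7 genes) against 1.64%, and the GABPA string CCGGAAGT for 7.81% (5 genes) against 4.31%. The ERR string TCAAGGTCA was present for 1.56%, which is 1 gene, against 0.466%. At least 1 of the 4 strings was present for 20 of the 64 subunits and for 7.93% of all genes. None of the 4 was present in the windows of the 4 tissue isoforms of complex IV that had one. The stretches below, 60 bases each and all upstream of the start, are shown as examples of each string from complexes I, III, IV and V; capitals mark the match.
Cox6a1 (NRF1, chr5:115349086-115349145, minus strand): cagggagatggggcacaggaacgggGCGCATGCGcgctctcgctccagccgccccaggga
Atp5g2 (NRF1, chr15:102671055-102671114, minus strand): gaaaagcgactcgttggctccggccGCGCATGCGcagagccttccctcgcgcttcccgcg
Atp5k (NRF1, chr5:108434415-108434474, minus strand): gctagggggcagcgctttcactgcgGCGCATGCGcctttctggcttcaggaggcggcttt
Ndufa11 (NRF1, chr17:56717677-56717736, plus strand): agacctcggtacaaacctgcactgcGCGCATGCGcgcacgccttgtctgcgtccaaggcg
Uqcr11 (GABPA, chr10:80406854-80406913, minus strand): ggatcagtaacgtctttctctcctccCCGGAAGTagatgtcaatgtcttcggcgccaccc
Atp5j (YY1, chr16:84835030-84835089, minus strand): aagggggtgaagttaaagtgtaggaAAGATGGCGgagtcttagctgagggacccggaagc
Atp5g3 (ERR, chr2:73911344-73911403, minus strand): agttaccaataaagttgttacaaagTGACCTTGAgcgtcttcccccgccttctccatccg

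Levels are given as log2 of the processed signal relative to the 75th percentile of the same array, so a level of 5 is far above the bulk of probes, and each probe is compared only with itself across arrays. All arrays had a 75th percentile signal between 537 and 679 units and 63.0% to 70.3% of probes well above background. Hair cell markers were well above background on all arrays for 8 of 10 genes, and markers of cochlear stroma and stria for 8 of 11. Markers of other tissues were present too. The 23 skeletal muscle markers were above background on every array, and their summed level (linear scale, relative to the 75th percentile) was 446 at baseline, 707 after noise alone, 1504 and 803 after saline at 12 h and 24 h, and 1055 and 550 after dexamethasone at 12 h and 24 h. The summed level of 8 salivary and mucosal gland markers was 812 and 1297 after saline and dexamethasone at 12 h and between 156 and 268 on the other arrays, and that of 8 cerebellar neuron markers was between 84.4 and 111 on the noise-only and 12 h arrays and between 17.2 and 27.1 on the others. The 12 h arrays shared a slide that held no other group, so for a 12 h array against baseline slide and group cannot be told apart. In whole tissue, fewer cells of a type and less RNA per cell cannot be told apart either.

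Of the 77 subunits, 76 were well above background on all 6 arrays. By signal 73 of the 77 probes lay within the brightest 10% of genes, a rank that a probe's affinity also sets. It serves here only to choose a set of genes of like signal, which includes these 73. Cox8c, a testis form, was above background on none. A gene is counted below as higher or lower in a comparison when it was above background on both arrays and differed at least 1.5-fold.

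After noise alone, the subunits of all complexes stayed close to baseline. The median log2 difference was -0.02 over 76 subunits and -0.01 over all 24160 measured genes, and 29 of the 76 were above 0. Complex medians were -0.01 (I), -0.02 (III), -0.09 (IV) and -0.01 (V). No subunit was at least 1.5-fold higher, against 6.41% of all genes, and 1 was lower, against 8.7%. That one was Cox7b2, a testis form, at 2.24-fold lower (1.60 to 3.14). The largest positive difference belonged to Cox6a2, the heart and muscle form of subunit 6a, at 1.496-fold (1.13 to 1.97), just short of the threshold. Among other subunits the range was narrow, from -0.24 (Cox4i2) to 0.12 (Ndufs4, an accessory subunit of complex I). With quantile normalization the subunit median was 0.10, with 62 of 76 above 0.

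**Figure D1:**
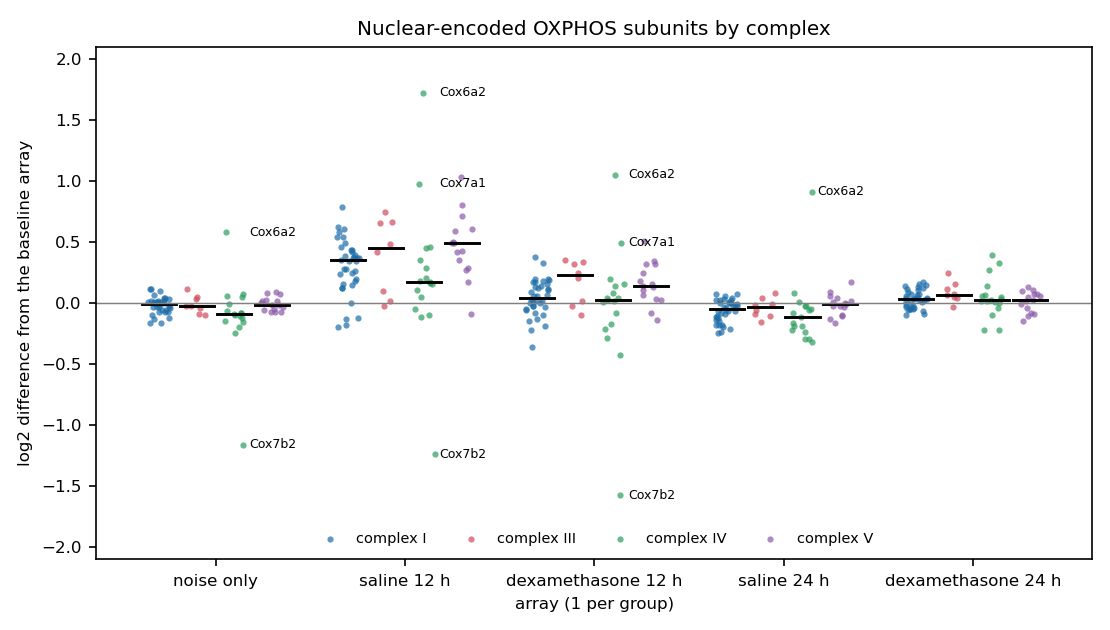
Log2 difference from the baseline array (vertical axis) for 76 subunits on each of the other 5 arrays (horizontal axis), coloured by complex; each point is 1 gene and each bar a complex's median. Most points lie near 0 except on the saline 12 h array, where complex medians run from 0.17 (IV) to 0.49 (V), or from -0.14 to 0.04 after quantile normalization, which is not drawn, and Cox6a2 stands above and Cox7b2 below the rest on several arrays.

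At 12 h after saline the subunits were shifted upward on the 75th percentile scale, and this shift was absent with quantile normalization. The median was 0.35 over 76 subunits, with 66 above 0, beside 0.06 over all 24284 measured genes. It was -0.06 after quantile normalization, with 29 above 0, and -0.46 with scaling on spike-in probes, which itself moved the median of all genes by -0.82. A total of 13 of 76 subunits, 17.1%, were at least 1.5-fold higher, close to the 14.7% of all genes, and 1 was lower, against 10.7%. With quantile normalization 1 subunit was higher and 4 were lower, beside 10.8% and 13.1% of all genes, and with spike-in scaling 1 was higher and 27 were lower, beside 1.964% and 63.9%. The median of the subunits minus that of all genes was 0.29 on the 75th percentile scale and with spike-in scaling, which moves all genes of an array alike, and -0.04 with quantile normalization. The complex medians were 0.49 (V), 0.45 (III), 0.35 (I) and 0.17 (IV). After quantile normalization they were -0.02, 0.04, -0.07 and -0.14, so complex IV was the lowest in both.

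In complex V the shift differed by subunit. Atp5e, the epsilon subunit of the central stalk, had levels of 5.78 at baseline, 5.86 after noise, 6.81 and 6.29 at 12 h after saline and dexamethasone, and 5.96 and 5.80 at 24 h. The saline 12 h array was the highest, 2.05-fold (1.55 to 2.70) above baseline, and the dexamethasone 12 h array came next. Atp5a1 and Atp5b, which form the catalytic head, lay within spot error of baseline, with log2 differences of -0.09 and 0.27. Atp5g2, one of 3 genes for the membrane c-ring and one of the promoters shown above, had levels of 5.63, 5.61, 6.43, 5.87, 5.67 and 5.48 in the same order, 1.74-fold (1.32 to 2.30) higher in the saline 12 h array. Atp5k, a membrane subunit whose stretch is also shown above, had levels of 5.86, 5.79, 6.35, 5.89, 5.76 and 5.92, with the saline 12 h array the highest. The sister genes of Atp5g2, Atp5g1 and Atp5g3, which encode the same mature protein, differed by 0.50 and 0.17. The 4 peripheral stalk genes lay between 0.28 (Atp5j) and 0.59 (Atp5f1). After quantile normalization Atp5e was at 0.57 and Atp5g2 at 0.30, while the stalk and c-ring medians were -0.07 and -0.02. The membrane genes Atp5k, Atp5j2 and Atp5l had a median of 0.49, and -0.02 after quantile normalization. With spike-in scaling the medians of the peripheral stalk, the c-ring and these membrane genes were -0.43, -0.32 and -0.33.

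In complex III the 5 small subunits had a median of 0.66, and the 2 core proteins with the Rieske iron-sulphur protein one of 0.10, or 0.18 and -0.11 after quantile normalization. Uqcrq, a small subunit next to cytochrome b, had levels of 6.62 at baseline, 6.60 after noise, 7.37 and 6.95 at 12 h after saline and dexamethasone, and 6.67 and 6.78 at 24 h. Its saline 12 h value was 1.68-fold (1.28 to 2.22) above baseline, or 0.28 on the log2 scale after quantile normalization and -0.07 with spike-in scaling. Uqcr11, whose promoter stretch is shown above, had a log2 difference of 0.67 and Uqcr10 one of 0.66. Uqcrfs1, the Rieske protein, which hands electrons on to cytochrome c1, was at -0.02, and the core proteins Uqcrc1 and Uqcrc2 at 0.41 and 0.10.

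In complex I the 7 catalytic core subunits and the 29 accessory subunits had like medians, 0.34 and 0.36, and -0.05 and -0.08 after quantile normalization. Ndufa2, an accessory subunit of the matrix arm, was the highest, 1.73-fold (1.31 to 2.28), or 0.26 on the log2 scale after quantile normalization and -0.03 with spike-in scaling, followed by Ndufa7 and Ndufb10. Ndufs1, the largest core subunit, which carries iron-sulphur clusters, was at -0.18, and Ndufv3 was the lowest at -0.20, which passed the 1.5-fold line after quantile normalization at -0.64. Ndufa2 had levels of 5.46 at baseline and after noise, 6.25 and 5.84 at 12 h after saline and dexamethasone, and 5.54 and 5.45 at 24 h. Both 12 h arrays were above the other 4. Ndufs1 had levels of 4.32, 4.35, 4.13, 4.19, 4.32 and 4.43 in the same order, with both 12 h arrays the lowest. Ndufv1, the NADH-binding subunit, was at 0.12. The 4 subunits below 0 were Ndufv3, Ndufs1, Ndufb3 and Ndufa10. Ndufa11, shown above with an NRF1 string, differed by 0.18.

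In complex IV the 10 subunits found in most tissues had a median of 0.17, -0.27 after quantile normalization. Cox4i1, a regulatory subunit that binds adenine nucleotides, was the highest of them at 0.46, and -0.02 after quantile normalization. Cox5a and Cox6a1 were the lowest, at -0.10 and -0.12, and passed the 1.5-fold line downward after quantile normalization, at -0.59 and -0.64. The 2 highest genes of the complex were muscle forms, Cox6a2 and Cox7a1.

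Cox6a2 was the subunit that differed most from baseline in an upward direction. Its probe lies on chr7:135349160-135349219 in mm9, and no promoter sequence for it is shown. Its levels were 3.95 at baseline, 4.53 after noise alone, 5.67 and 4.86 at 12 h and 24 h after saline, and 5.00 and 4.34 at 12 h and 24 h after dexamethasone. The baseline array was the lowest of the 6 and the saline 12 h array the highest. Against baseline it was 3.31-fold (2.51 to 4.36) higher after saline at 12 h and 1.88-fold (1.43 to 2.49) higher at 24 h. It kept this direction in noise only, saline 12 h and saline 24 h under every scaling tried, the smallest values being those of spike-in scaling, at 0.48, 0.91 and 0.62. Cox6a1, the form of most other tissues, was at or below baseline on 4 of the 5 other arrays, with differences from -0.29 to 0.03.

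Cox7a1, the heart and muscle form of subunit 7a, had levels of 4.64 at baseline, 4.70 after noise alone, 5.62 and 4.45 at 12 h and 24 h after saline, and 5.14 and 4.92 at 12 h and 24 h after dexamethasone. The saline 12 h array was the highest, 1.97-fold (1.49 to 2.60) above baseline, and the saline 24 h array the lowest. The saline 12 h difference fell short of 1.5-fold at 0.54 on the log2 scale after quantile normalization, 0.58 with normexp and 0.16 with spike-in scaling. Cox8b, the heart and muscle form of subunit 8, had levels of 5.03, 4.95, 5.50, 4.72, 5.19 and 5.36 in that order. It was highest in the saline 12 h and lowest in the saline 24 h array, though with spike-in scaling its saline 12 h difference was -0.35. The common forms Cox7a2 and Cox8a lay within 0.2 of baseline on every array.

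The median of the 23 skeletal muscle markers had the sign of Cox6a2 in all 5 comparisons. It was 0.69 after noise alone, 1.79 and 0.91 at 12 h and 24 h after saline, and -0.53 and -0.64 for dexamethasone minus saline at 12 h and 24 h. For the same comparisons Cox6a2 was at 0.58, 1.73, 0.91, -0.67 and -0.52. The muscle forms Cox7a1 and Cox8b had the signs of the marker median at 12 h but the opposite signs at 24 h. Their levels were 4.45 and 4.72 in the saline 24 h array, below baseline, and 4.92 and 5.36 in the dexamethasone 24 h array. Of the 23 markers, 19 were above 0 after noise alone, with Tnnt1 the lowest at -0.72, and 23 at both times after saline. For dexamethasone minus saline 3 were above 0 at 12 h and 0 at 24 h. These 2 marker medians were -0.26 and -0.50 after quantile normalization and -0.24 and -0.74 with spike-in scaling. Ckmt2, the mitochondrial creatine kinase of striated muscle, had levels of 2.55 at baseline, 3.00 after noise, 4.35 and 3.45 at 12 h and 24 h after saline, and 3.82 and 3.08 after dexamethasone. Its lowest array was baseline and its highest the saline 12 h array, as for Cox6a2, but it is 1 of the 23 and was named after its values were seen. The Cox6a2 probe starts 388 bases along its transcript. The part of muscle tissue in the Cox6a2 values was not tested.

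Cox7b2 was the one subunit well below baseline on several arrays. Its log2 levels were low throughout, -2.88 at baseline, -4.04 after noise alone, -4.12 and -3.10 at 12 h and 24 h after saline, and -4.46 and -3.10 at 12 h and 24 h after dexamethasone. The noise-only array and both 12 h arrays were the low ones, and the 24 h arrays lay within spot error of baseline. Its spot error is larger than that of the bright subunits, with an interval of 1.66 to 3.37 around the 2.36-fold lower value of saline 12 h, and with normexp background correction the noise-only difference was -0.51 and that of dexamethasone 12 h -0.73. The testis form Cox6b2 and the lung-enriched Cox4i2 stayed between -0.42 and 0.15 on all arrays.

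**Figure D2:**
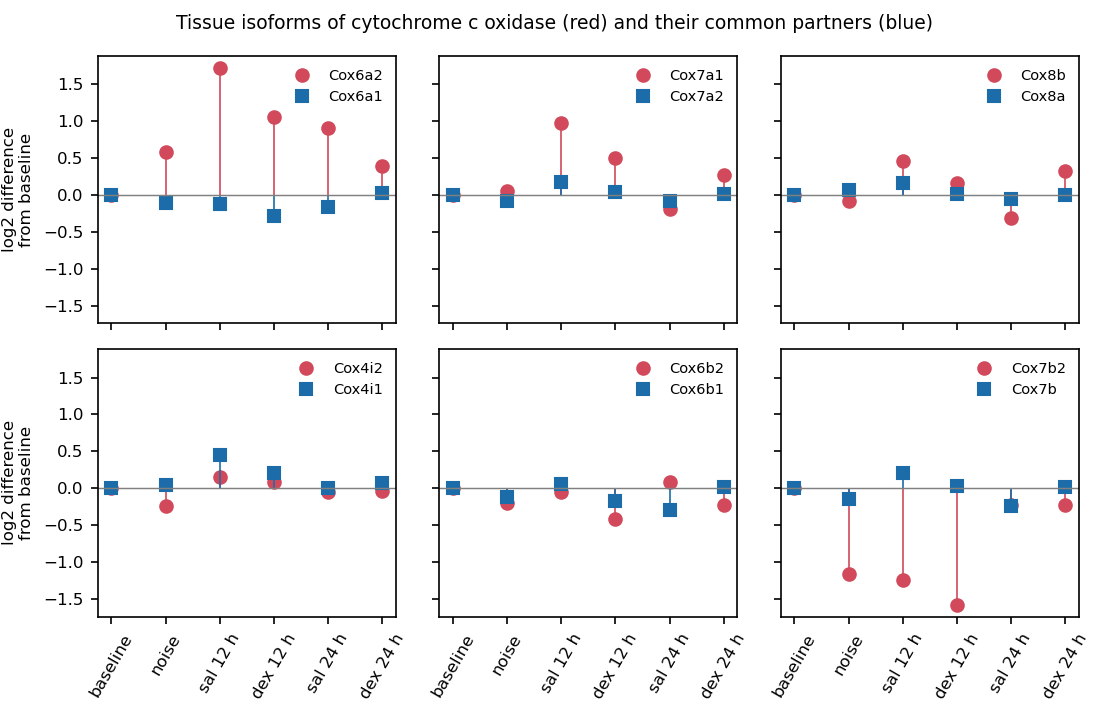
Log2 difference from the baseline array (vertical axis) on each of the 6 arrays (horizontal axis; sal, saline; dex, dexamethasone) for 6 tissue isoforms of cytochrome c oxidase (red circles) and their common partners (blue squares). Cox6a2 reaches 1.73 on the saline 12 h array while Cox6a1 stays between -0.29 and 0.03, and Cox7b2 is below -1 on the noise-only and both 12 h arrays, though at -0.51, -0.67 and -0.73 on these with normexp.

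At 24 h after saline the subunits were again near baseline, with a median of -0.05 beside 0.01 over all 22965 measured genes and 22 of 76 above 0. Complex medians were -0.05 (I), -0.03 (III), -0.11 (IV) and -0.01 (V). One subunit, Cox6a2, was at least 1.5-fold higher, against 4.93% of all genes, and none was lower, against 5.3% (10.2% of all genes in either direction). The next highest was Atp5e at 0.18. The lowest were Cox8b (-0.32), Cox7c and Cox6b1 (both -0.29), all of complex IV, and each within spot error. With spike-in scaling the subunit median was -0.35, and that of all genes moved by -0.30.

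Dexamethasone at 12 h was accompanied by lower subunit signals than saline at 12 h on the 75th percentile scale, and not with quantile normalization. The median, dexamethasone minus saline, was -0.27 beside -0.02 over all 24178 measured genes, and 75 of 76 subunits were below 0, the exception being Ndufs1 at 0.05. It was 0.03 after quantile normalization, with 44 of 76 above 0, and 0.02 with spike-in scaling, which moved the median of all genes by 0.29. Relative to the median of all genes the subunits were at -0.24 on the 75th percentile scale and with spike-in scaling, and at 0.03 with quantile normalization. By complex the medians were -0.27 (I), -0.15 (III), -0.22 (IV) and -0.32 (V). One subunit, Cox6a2, was at least 1.5-fold lower, 1.60-fold (1.21 to 2.11), against 7.55% of all genes, and none was higher, against 5.24%. The Cox6a2 difference fell short of the line at -0.31 with quantile normalization and normexp and at -0.39 with spike-in scaling. The lowest after Cox6a2 were Atp5g2 (-0.56), Atp5e (-0.52) and Cox7a1 (-0.48), genes that had been among the highest in the saline 12 h array. The catalytic subunits Atp5a1 (-0.05) and Atp5b (-0.11), Ndufv1 (-0.12) and Uqcrfs1 (-0.08) were among the least shifted. Both arrays lie on one slide. Against baseline the dexamethasone 12 h array itself had a subunit median of 0.06. Comparisons that use the saline 12 h array share it, so the values of saline 12 h against baseline and of dexamethasone against saline at 12 h are not independent.

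At 24 h the difference between dexamethasone and saline was small and mostly positive. The median was 0.09 beside -0.00 over all 22709 measured genes, and 60 of 76 subunits were above 0. It was 0.24 after quantile normalization, with 73 of 76 above 0, and -0.01 with spike-in scaling, with 34 above 0, where the median of all genes was -0.11. Complex medians were 0.09 (I), 0.13 (III), 0.09 (IV) and 0.05 (V). In complex III 8 of 8 subunits were above 0, in complex I 29 of 36, in complex IV 13 of 17 and in complex V 10 of 15. All 10 complex IV subunits of most tissues were above 0, from 0.06 (Cox4i1) to 0.35 (Cox7c), within spot error one by one, and Cox4i1 was at -0.04 with spike-in scaling. The highest complex I gene was Ndufb6, an accessory subunit of the membrane arm, at 0.38, with levels of 3.70 in the saline and 4.08 in the dexamethasone array and 3.94 at baseline. The dexamethasone 24 h array lay close to baseline, with a median of 0.03.

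One subunit, Cox8b, was at least 1.5-fold higher with dexamethasone at 24 h, 1.56-fold (1.18 to 2.06), against 5.23% of all genes, and none was lower, against 5.87%. Cox7a1 was 1.38-fold (1.05 to 1.82) higher, and both had the same direction under every scaling tried. Cox6a2 went the other way at 1.43-fold lower (1.09 to 1.89). Cox8b had levels of 4.72 and 5.36 in the saline and dexamethasone 24 h arrays, and Cox7a1 of 4.45 and 4.92; for both the baseline array lay between. Brown adipocytes also express Cox7a1 and Cox8b. Of the 5 brown adipocyte markers 4 were above background on all arrays, and their summed level was 72.8 in the dexamethasone 24 h array, 20.3 in the saline 24 h array, 35.4 and 17.96 in the dexamethasone and saline 12 h arrays, 29.3 after noise and 40.0 at baseline. Ucp1, the uncoupling protein that defines these cells, had levels of 4.40 and 2.06 in the dexamethasone and saline 24 h arrays and 3.33 at baseline, and Cidea levels of 5.45, 3.62 and 4.61. These 2 genes make up most of the summed level in the dexamethasone 24 h array, so they are not separate from it. Of the 4 markers measured at 24 h, 3 were above 0 for dexamethasone minus saline, and Prdm16 was at -0.01. At 12 h the markers' median, dexamethasone minus saline, was 0.38, while Cox7a1 and Cox8b were at -0.48 and -0.31. The part of adipose tissue in the Cox7a1 and Cox8b values was not tested.

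**Figure D3:**
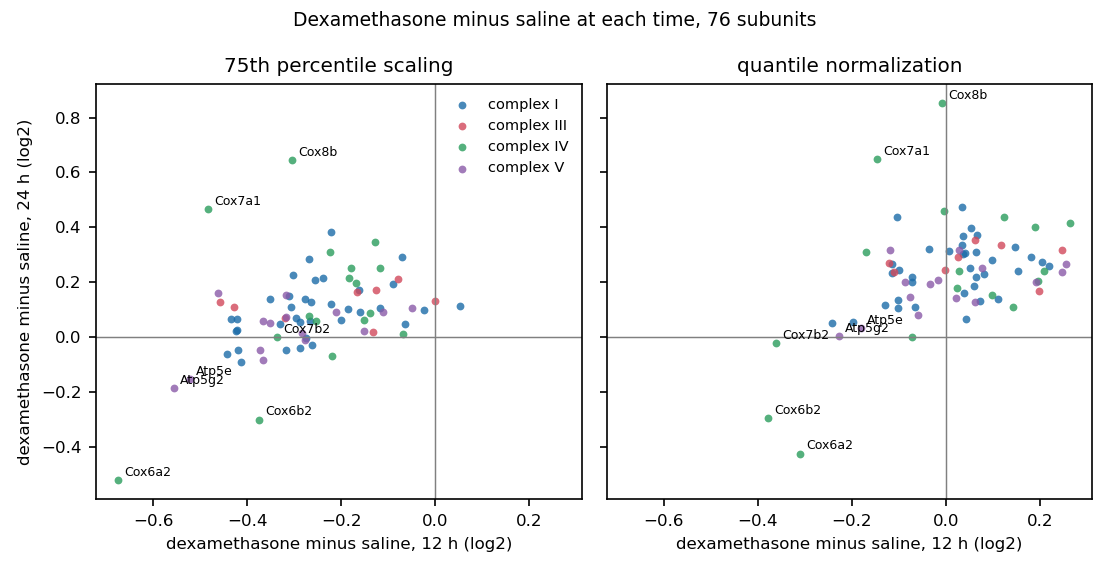
Dexamethasone minus saline at 12 h (horizontal axis) against the same at 24 h (vertical axis), log2, for 76 subunits coloured by complex, on the 75th percentile scale (left) and after quantile normalization (right). On the left 59 subunits are lower at 12 h and higher at 24 h; on the right 44 are higher at both times and 29 lower at 12 h and higher at 24 h, and Cox6a2, Cox7a1 and Cox8b stand apart on both.

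Against the untreated baseline the subunit medians of the dexamethasone arrays depended on the scaling. At 12 h the median was 0.06 on the 75th percentile scale, -0.05 after quantile normalization and -0.47 with spike-in scaling, and at 24 h it was 0.03, 0.18 and -0.37. On the 75th percentile scale the complex medians at 12 h were 0.04 (I), 0.23 (III), 0.02 (IV) and 0.14 (V), with 53 of 76 subunits above 0, and Cox6a2 was 2.07-fold (1.57 to 2.73) higher and Cox7b2 2.98-fold (1.95 to 4.58) lower, beside 11.4% and 9.72% of all genes past 1.5-fold. At 24 h they were 0.03, 0.07, 0.02 and 0.02, again with 53 above 0, and no subunit was 1.5-fold apart, beside 4.45% of all genes higher and 6.16% lower. Cox6a2 was then at 1.31-fold (0.995 to 1.73), an interval that includes no difference, and at -0.01 on the log2 scale with spike-in scaling. These comparisons use the same baseline array as those of noise and saline.

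Dexamethasone over both times, with time as a term, was the one contrast with 2 arrays on each side. No subunit of 76 passed an adjusted p of 0.05 in limma, and 0 of 24766 genes did (0%); at an unadjusted p under 0.05 there were 3 subunits and 3635 genes. The subunit with the smallest p was Cox6a2, lower by dexamethasone in 2 of 2 time points, with a log2 difference of -0.60 (SE 0.11, limma adjusted p = 0.17). The one setting that called Cox6a2 had no filter on dim probes and called 951 of 37317 genes. Over the alternatives that keep all 4 arrays its limma adjusted p ran from 0.041 in that setting to 0.9998 with no time term. Its log2 difference in the fits that leave out 1 array and the time term was -0.19 without saline 12 h, -0.27 without dexamethasone 24 h, -0.93 without dexamethasone 12 h and -1.003 without saline 24 h. Atp5g2 (-0.37) and Cox6b2 (-0.34) were the other 2 at an unadjusted p under 0.05, with limma adjusted p of 0.32 each. The median over the 76 subunits was -0.07, and 0.14 after quantile normalization. Without the saline 12 h array it was 0.11, with 65 of 76 above 0, and without the saline 24 h array -0.26. In a simulation of these 4 arrays, 100 genes were set to a 4-fold and 100 to a 2-fold change, and limma called 67% of the former and 0% of the latter. Time and slide cannot be told apart in this fit.

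The differences of bright genes went with where a probe lies on its transcript, most in the comparisons that use the saline 12 h array. Subunit transcripts are short, and the probes start at a median of 460 bases along them (range 40 to 2411), compared with 1386 for the brightest 10% of genes. In saline 12 h against baseline the brightest genes had medians of 0.43, 0.45, 0.33, 0.18, 0.03 and -0.24 in 6 ranges of probe start, bounded at 300, 600, 900, 1500 and 3000 bases. Subunits in the first 5 of these ranges had medians of 0.44 (10 genes), 0.36 (41), 0.35 (9), 0.36 (9) and 0.12 (7). For dexamethasone minus saline at 12 h the brightest genes went from -0.35 in the first range to 0.13 in the last, and the subunits from -0.32 to -0.12. In both comparisons the subunits lay close to the brightest genes with like probe positions up to 900 bases. That set includes 73 of the 77 subunits. Across the 3644 brightest genes Spearman's rho of probe position with the difference was -0.50 and 0.59 for these comparisons, and across the 76 subunits it was -0.20 and 0.34, as a description over genes that share the same arrays. At 24 h dexamethasone minus saline again rose with position for the brightest genes, from -0.22 and -0.15 in the first 2 ranges to 0.03 in the last (rho 0.27). The subunits were at 0.16 and 0.07 in the first 2 ranges (rho -0.03). Against baseline, rho across the brightest genes was 0.31 for noise only and 0.16 for saline 24 h. It was -0.21 for dexamethasone 12 h and 0.42 for dexamethasone 24 h. The part of probe position or RNA length in the subunit values was not tested.

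**Figure D4:**
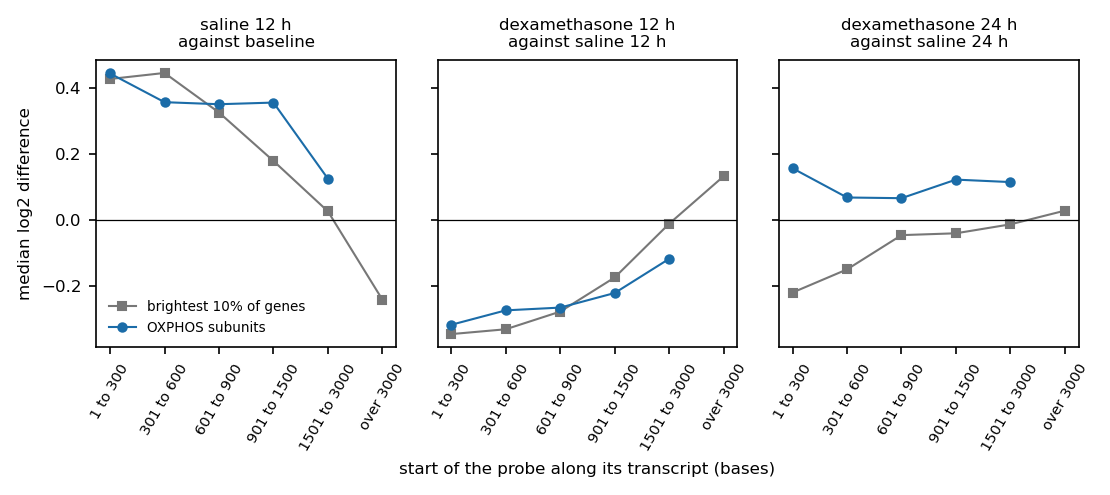
Median log2 difference (vertical axis) by the start of the probe along its transcript in bases (horizontal axis) for OXPHOS subunits (blue circles) and the brightest 10% of genes (grey squares) in 3 comparisons. The lines run together at 12 h for probes within the first 900 bases. At 24 h the subunits lie above the brightest genes, 0.16 against -0.22 in the first range. The brightest genes include 73 of the 77 subunits.

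Of the 76 measured subunit genes, 27 had another probe that could be compared for saline 12 h against baseline, and 26 of 35 such probes had the direction of the probe used. The counts were 26 of 35 for dexamethasone minus saline at 12 h and 25 of 34 at 24 h. Among the 13 subunits at least 1.5-fold higher after saline at 12 h, 3 had other probes, and all of these had the same direction. Atp5g2 was spotted 10 times on each array, with an SD of log2 signal of 0.062 to 0.087. Atp5c1, the gamma subunit of the central stalk, and its pseudogene Atp5c1-ps, whose probes may bind both transcripts, were at 0.72 and 0.90 in saline 12 h against baseline.

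Other genes of the pathway were read from lists of known members. Protein genes of the mitochondrial genome, whose products join the nuclear subunits in complexes I, III, IV and V, were represented by 11 genes. Their median in saline 12 h against baseline was -0.50, against 0.35 for the nuclear subunits, and -0.998 after quantile normalization. Of the 11, 5 were at least 1.5-fold lower, beside 10.7% of all genes, and 1 was higher, beside 14.7%. ND1, of complex I, had levels of 4.57 at baseline, 4.23 after noise, 3.32 and 4.00 at 12 h and 24 h after saline, and 3.45 and 4.40 after dexamethasone. Both 12 h arrays were the low ones. ND6, the one protein gene on the other strand of the mitochondrial genome, went the opposite way, at 0.88, or 1.84-fold higher. With dexamethasone at 24 h 11 of 11 were above the saline value, with a median of 0.08, and -0.02 with spike-in scaling.

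Mitochondrial ribosomal proteins, which translate those genes, had a median of 0.36 over 78 genes in saline 12 h against baseline and -0.23 for dexamethasone minus saline at 12 h. Cytosolic ribosomal proteins had 0.53 and -0.34 over 87 genes, without the S6 kinases that share their names' first letters. Both groups thus had the signs of the OXPHOS subunits at 12 h on the 75th percentile scale. After quantile normalization mitochondrial ribosomal proteins were at 0.27 and -0.15, and cytosolic ones at 0.12 and -0.03. With spike-in scaling the values were -0.45 and 0.06, and -0.29 and -0.05. At 24 h, dexamethasone minus saline was 0.04 for mitochondrial ribosomal proteins and -0.06 with spike-in scaling. It was -0.25 over 86 cytosolic ones, below 0 under every scaling tried.

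Enzymes of the tricarboxylic acid cycle, which supply NADH to complex I, did not share the 12 h shift, with medians of -0.12 in saline 12 h against baseline and 0.04 for dexamethasone minus saline over 17 genes. At 24 h their median was 0.25 for dexamethasone minus saline, with 15 of 17 above 0, and 0.34 and 0.15 with quantile and spike-in scaling. None of the 17 was at least 1.5-fold apart at 24 h, beside 11.1% of all genes. Cycs, cytochrome c, which carries electrons from complex III to complex IV, had levels of 4.796 in the saline and 5.26 in the dexamethasone 24 h array and 5.02 at baseline.

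Complex II, which is wholly nuclear-encoded and shared with that cycle, was split at 12 h. Sdha, the flavoprotein, was at -0.73 and Sdhb, the iron-sulphur subunit, at 0.60 in saline 12 h against baseline. For dexamethasone minus saline at 24 h all 4 genes were above 0 on the 75th percentile scale, with a median of 0.13, and 0.03 with spike-in scaling. The 14 assembly factors of complex I and the 25 of complexes III, IV and V had medians of 0.05 and 0.01 in saline 12 h against baseline, and -0.77 and -0.81 with spike-in scaling, with extremes on the first scale of 1.08 (Uqcc2) and -1.002 (Lyrm7), both of complex III assembly. Regulators of mitochondrial biogenesis included the coactivator gene Ppargc1a and the factors named for the promoter strings above. Their medians lay between -0.04 and 0.09 in all 5 comparisons on the 75th percentile scale. With spike-in scaling the median was -0.85 in saline 12 h against baseline and 0.37 for dexamethasone minus saline at 12 h. The lowest regulator in saline 12 h was Ppara, a lipid-activated receptor, at -1.66 on the 75th percentile scale. Glycolytic genes had medians from -0.19 to 0.09 on the 75th percentile scale, and in saline 12 h -0.42 after quantile normalization. The highest was Pgam2, the muscle form of phosphoglycerate mutase, at 2.69 in saline 12 h.

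**Figure D5:**
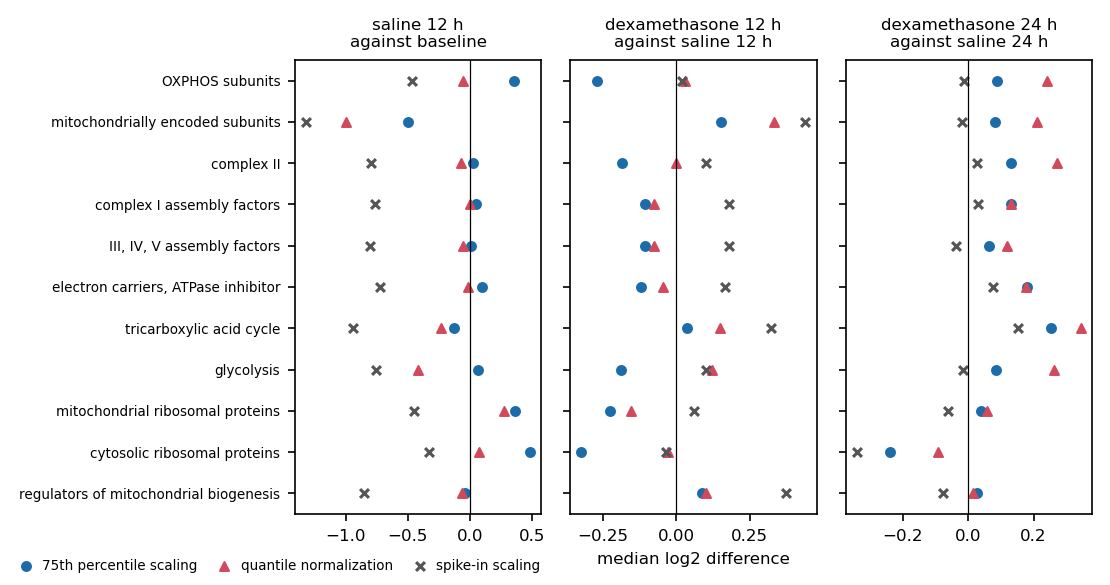
Median log2 difference (horizontal axis) of the OXPHOS subunits and 10 lists of related genes (vertical axis) in 3 comparisons, on the 75th percentile scale (circles), after quantile normalization (triangles) and with spike-in scaling (crosses). For saline 12 h against baseline the subunits are at 0.35, -0.06 and -0.46, and the tricarboxylic acid cycle is above 0 under all 3 settings for dexamethasone against saline at 24 h; the cytosolic ribosomal list drawn also holds S6 kinases.

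The 11 other names that the rule took had medians of 0.17 in saline 12 h against baseline and 0.09 for dexamethasone minus saline at 24 h, with 8 and 10 of 11 above 0. Ndufaf7, a methyltransferase of complex I assembly, was the lowest in the first at -0.36, and Ndufaf4 the highest in the second at 0.26.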

How the data were processed

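Cochlear RNA of 6 groups was measured on 1 array each. Spot intensity in the deposited scanner files is linear, and the authors extracted it with Agilent Feature Extraction 10.10.1.1, per the file headers; the headers place probes on mm9. The authors' deposited series matrix holds log2 values; set against the scanner files, 100% of probes differed by 1 constant per array (tolerance 0.01), so scale, centring and direction are known. Its column medians were -2.952 (baseline), -2.979 (noise only), -2.85 and -2.928 (saline 12 h and 24 h), and -2.81 and -2.899 (dexamethasone 12 h and 24 h).

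Outlier spots were left out, spots of a probe averaged, and each array's 75th percentile over distinct non-control probes was subtracted from log2 signals. A gene was represented by its brightest probe. Of 56605 probes 32994 were named through RefSeq (GRCm38.p6), while members kept the names in the files. Intervals are 1.96 spot errors, which rest on a preset 10% multiplicative error; the number of arrays limits the precision. Promoter sequences are RefSeq's. The members, gene lists and tests were chosen with earlier results of these data known. Named genes were the 3 highest and 3 lowest subunits of each comparison, tissue isoforms with their partners, core subunits and the extremes of each list; other subunits and list members were named after their values were seen, to describe a group. Dexamethasone over both times used limma 3.58.1 (lmFit, eBayes with trend, time as a term) in R 4.3.3, with Benjamini-Hochberg adjustment, for genes above background on at least 2 of 4 arrays, tested on simulated data with 6 false calls among 24766 genes. Since the labels do not tell whether the mice of a group were pooled, its p-values measure the spread between these arrays only. Alternatives were quantile normalization, normexp (offset 50), other percentiles, filters and probes, spike-in scaling, a 2-fold threshold and each array left out. Versions of other tools were scipy 1.17.1, numpy 2.4.6, pandas 2.3.3, matplotlib 3.10.9 and Python 3.11.15, with the R package data.table at 1.17.8. Some genes that the rule for named genes takes are not reported here.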

Additional observations from a re-analysis of the deposited data

Results flagged for a closer look

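Cox7a1 differed in opposite directions with dexamethasone at the 2 times, each beyond spot error on the 75th percentile scale. It was at -0.48 at 12 h and 0.47 at 24 h, a difference between times of 0.95 (log2). That difference was 0.79 after quantile normalization and 0.56 with spike-in scaling. After quantile normalization the 24 h value alone was 0.65, most of the 0.79. The 12 h value was thus closer to no difference there than the -0.48 above. With 1 array per group the difference between times was not tested.

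The subunit median, dexamethasone minus saline, had opposite signs at the 2 times, with a difference between times of 0.36, and 59 of 76 subunits were lower at 12 h and higher at 24 h. This was not tested either, and after quantile normalization both medians were above 0, at 0.03 and 0.24.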

How the results depend on the processing

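Of the medians and counts recomputed under the alternatives, 102 were labelled as the same, 36 as moved and 6 as turned. Of single isoform values, 271 were labelled as the same, 25 as moved and 4 as turned. These labels do not count every change of sign, since small values could change sign and not be labelled as turned. The subunit median of noise only went from -0.02 to 0.10 with quantile normalization. That of dexamethasone minus saline at 24 h went from 0.09 to -0.01 with spike-in scaling. The subunit median of saline 12 h against baseline became -0.057 with quantile normalization, -0.068 with normexp and -0.46 with spike-in scaling, and that of dexamethasone minus saline at 12 h became 0.031, 0.023 and 0.018; for saline 24 h it was -0.35 with spike-in scaling. Cox4i1 in saline 12 h turned to -0.016, -0.069 and -0.36 under these, and Cox8b to -0.35 with spike-in scaling. The causes were not tested. Counts of subunits 1.5-fold apart are followed by the shares of all genes higher and lower. With quantile normalization they were 2 for noise only (6.40% and 8.15%) and 5 for saline 12 h (10.8% and 13.1%). For dexamethasone at 12 h and 24 h they were 0 (5.92% and 7.63%) and 2 (5.09% and 5.94%). With normexp the count was 4 for saline 12 h (6.82% and 8.30%). It was 0 for dexamethasone 12 h (3.08% and 4.08%) and 2 for dexamethasone 24 h (3.21% and 3.49%). With spike-in scaling it was 28 for saline 12 h, of which 27 lower (1.964% and 63.9%). It was then 4 for saline 24 h, of which 3 lower (2.19% and 15.8%), and 0 for dexamethasone 12 h (16.8% and 2.99%). At 2-fold the count was 3 for saline 12 h (4.41% and 3.42%) and 0 for saline 24 h (1.72% and 1.72%). It was also 0 at 2-fold for dexamethasone at 12 h (1.67% and 1.88%) and 24 h (1.63% and 1.53%). With the mean over a gene's probes and the 1.5-fold line it was 2 for noise only (6.84% and 8.82%). It was 3 for saline 24 h (5.99% and 5.32%) and 2 for dexamethasone 12 h (5.34% and 7.82%). Without a filter it was 2 for saline 24 h (26.3% and 8.34%), and among brighter genes 0 for noise only (5.84% and 7.16%). Without the tissue isoforms it was 0 in every comparison except saline 12 h, where it was 11 of 70, all higher (14.7% and 10.7%). Of the 3 muscle isoforms, 1 was past the fold for noise only and for saline 12 h with quantile normalization and normexp, 0 for dexamethasone 12 h and 2 for dexamethasone 24 h; with spike-in scaling these were 1 (saline 12 h), 2 (saline 24 h) and 0 (dexamethasone 12 h). The limma fit called 1 subunit of 77, Cox6a2, without a filter, where it called 951 of 37317 genes. It called 0 subunits under the other settings that keep all 4 arrays. Among these, spike-in scaling called 548 of 24766 genes and the rest called 0. In the fits with 1 array left out, the lone array is assumed to vary like the others. No paired analysis was possible because the labels give no replicate numbers and each group has 1 array; the time term of the limma fit compares arrays within a time. The median of cytosolic ribosomal proteins without S6 kinases was chosen after seeing the data.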
